A study of Mus musculus with 11 samples.

Results

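Pericytes are the mural cells that wrap the capillaries of the brain, and 1683 of them were identified among 132437 retained cells of 11 mouse brain libraries. A cell was counted as a pericyte when at least 3 of the 6 genes Kcnj8, Abcc9, Atp13a5, Higd1b, Vtn and Rgs5 had a unique molecular identifier (UMI, 1 counted RNA molecule). It also had fewer than 2 of the smooth muscle genes Myh11, Cnn1, Pln and Mustn1, fewer than 2 of the endothelial genes Cldn5, Flt1, Pecam1 and Cdh5, and fewer than 2 of P2ry12, Tmem119, Mog, Aqp4 and Kcnj13, which mark microglia, oligodendrocytes, astrocytes and choroid plexus. Retained cells had over 500 genes, over 1000 UMIs and under 25% mitochondrial UMIs, and they came from 155804 barcodes. The levels of these 19 genes chose the cells and are therefore given as descriptions without a test.

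Each library held the cells of the right brain of 1 mouse and was made with the Chromium 3′ kit for polyadenylated RNA. The study asked how loss of Lrg1, a secreted leucine-rich glycoprotein, changes the brain after middle cerebral artery occlusion and reperfusion (MCAO/R), a filament model of stroke. Sham mice had the same operation without entry of the filament into the internal carotid artery. The wild-type (WT) mice were male C57BL/6 mice whose age the study's methods give in weeks. The Lrg1-/- mice were a conventional knockout on a C57BL/6N background that carries the deletion in every cell, and their age is given in months. The labels give neither an occlusion time, a reperfusion time nor a preparation date, so genotype cannot be told apart from any difference in strain, age or preparation between the genotypes. The sham + WT group had 3 libraries (259, 194 and 181 pericytes in replicates 1, 2 and 3), and the MCAO/R + WT group had 2 (257 and 507 in replicates 1 and 2). The sham + Lrg1-/- group had 3 libraries (40, 27 and 9 pericytes in replicates 1, 2 and 5), and the MCAO/R + Lrg1-/- group had 3 (19, 112 and 78 in replicates 1, 2 and 5). Libraries with fewer than 20 pericytes, which were sham + Lrg1-/- replicate 5 and MCAO/R + Lrg1-/- replicate 1, were not used in any test of a gene, and statements on the overlap of groups cover the other 9 libraries.

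Pericytes sit within the basement membrane that they share with endothelial cells and are recruited and kept there by PDGF-B acting on the receptor PDGFRB. In the brain they help to maintain the blood-brain barrier, and some of them adjust capillary diameter through calcium and ATP-sensitive potassium channels. After ischaemia they are known to constrict, to detach or to die, and others proliferate or take part in scar formation and inflammation.

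Genes outside the selection rule bore out the name of the cells in the sham + WT group, though some were higher in another class. Pdgfrb, the PDGF receptor itself, stood at 1058 ± 85.6 CPM (SD, n = 3; counts scaled to a total of 1e+06) in pericytes, which was 47.2 times its level in all other retained cells. Slc6a20a, a proline transporter, was at 66.5 times the level of other cells, P2ry14, a receptor for UDP-glucose, at 57.9 times, and Ndufa4l2, a subunit-like protein of the respiratory chain, at 54.0 times. Notch3 and Cspg4, which smooth muscle cells also express, were at 25.6 and 25.8 times. Against smooth muscle cells alone, Pdgfrb was at 4.33 times, Notch3 at 1.61 times and Cspg4 at 1.52 times. Some other pericyte genes were not highest in pericytes. Foxf2 was at 35.5 CPM against 77.5 CPM in endothelial cells, and Mcam at 205 against 474 CPM in smooth muscle cells. Tbx18 and Colec12 were at 126 and 806 CPM against 295 and 1725 CPM in fibroblasts. Acta2, smooth muscle actin, was at 209 CPM in pericytes against 14118 CPM in the cells called smooth muscle by their own markers, and Dcn, a fibroblast proteoglycan, was at 60.7 CPM against 7457 CPM in fibroblasts. These ratios are descriptions over cells of the same libraries, and the other classes were chosen by marker rules of the same kind (2735 smooth muscle cells, 19052 endothelial cells and 87 fibroblasts over all libraries).

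From here on CPM are scaled to TMM-adjusted totals of the pericytes of a library, unless a sentence says otherwise. Among the genes of the rule, Vtn, which encodes the matrix protein vitronectin, was the most abundant. It stood at 13129, 11854 and 13489 CPM in the sham + WT libraries and at 6648 and 7578 CPM in the MCAO/R + WT libraries. Rgs5, a regulator of G protein signalling, stood at 3552, 3975 and 4014 CPM after sham surgery and at 2561 and 2771 CPM after MCAO/R. Higd1b stood at 700 and 756 CPM after MCAO/R against 882 to 943 CPM after sham surgery, so that the MCAO/R libraries were lower for these 3 genes. Atp13a5 and Kcnj8 overlapped, at 1508 and 1992 against 1692 to 2344 CPM and at 843 and 759 against 674 to 782 CPM, and Abcc9 stood at 975 and 1035 against 685 to 968 CPM. At the limit of the rule, sham + WT cells with exactly 3 of the 6 genes held Vtn at 3007, 1202 and 1758 CPM of their unadjusted totals, and cells with only 2, which were left out, held it at 460, 112 and 321 CPM. For MCAO/R + WT cells these levels were 867 and 1598 against 245 and 201 CPM. The gap was narrower in some Lrg1-/- libraries, at 759, 1150 and 2786 against 286, 942 and 556 CPM after sham surgery and 745, 1444 and 802 against 567, 211 and 337 CPM after MCAO/R. Cells with exactly 3 of the genes were 4.64% to 20.5% of the members in the WT libraries and 22.2% to 47.4% in the Lrg1-/- libraries. Cells with only 2 of the genes numbered 106, 35 and 26 in the sham + WT libraries and 65 and 183 in the MCAO/R + WT libraries, fewer than the members in each. In the Lrg1-/- libraries they outnumbered the members, at 58, 31 and 21 after sham surgery and 51, 127 and 196 after MCAO/R.

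Lrg1 had no UMI in pericytes of any Lrg1-/- library. It also had none in pericytes of the 3 sham + WT libraries. After MCAO/R, the WT pericytes held 13 and 18 UMIs, or 8.83 and 6.63 CPM. Endothelial cells of the same mice held Lrg1 at 193 to 213 CPM of library totals, against 6.97 to 9.29 CPM on the same scale in pericytes.

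The pericytes of the Lrg1-/- libraries held more haemoglobin and choroid plexus RNA than those of the WT libraries. The 6 haemoglobin genes summed to 28 to 50 CPM in the 5 WT libraries and to 5482 to 173945 CPM in the 6 Lrg1-/- libraries. Transcripts of choroid plexus (11 genes, among them Ttr) summed to 271 to 1203 CPM in WT and to 3534 to 62655 CPM in Lrg1-/- libraries. Microglial transcripts (12 genes) ranged from 3631 to 6972 CPM in WT and from 4850 to 14838 CPM in Lrg1-/- libraries, and smooth muscle transcripts (10 genes) from 1171 to 2233 CPM and from 1758 to 7067 CPM. The smooth muscle sum includes Myh11, Cnn1, Pln and Mustn1, whose detection the rule limited. It also includes Myl9, which sham + WT pericytes held at 1306 CPM of unadjusted totals, 5.31 times its level in all other retained cells. The sum is therefore no separate measure of smooth muscle RNA. Neutrophil transcripts (8 genes) summed to 24, 33 and 69 CPM in the sham + Lrg1-/- libraries and to 77, 524 and 3149 CPM in the MCAO/R + Lrg1-/- libraries, against 4 to 105 CPM in WT. Transcripts of oligodendrocytes (1550 to 5162 CPM in WT and 641 to 5086 CPM in Lrg1-/- libraries), neurons (520 to 777 and 188 to 790 CPM), astrocytes (588 to 1200 and 570 to 2598 CPM) and endothelium (1115 to 1403 and 1230 to 2979 CPM) overlapped as well. No haemoglobin, choroid plexus or microglial gene was called between MCAO/R and sham surgery in WT pericytes by the test described further on. The gap between the genotypes was not particular to pericytes. In all other retained cells haemoglobin summed to 240 to 415 CPM of unadjusted totals in WT and 34475 to 90033 CPM in Lrg1-/- libraries. Choroid plexus transcripts summed there to 1395 to 7567 CPM in WT and 17980 to 85321 CPM in Lrg1-/- libraries.

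**Figure D1:**
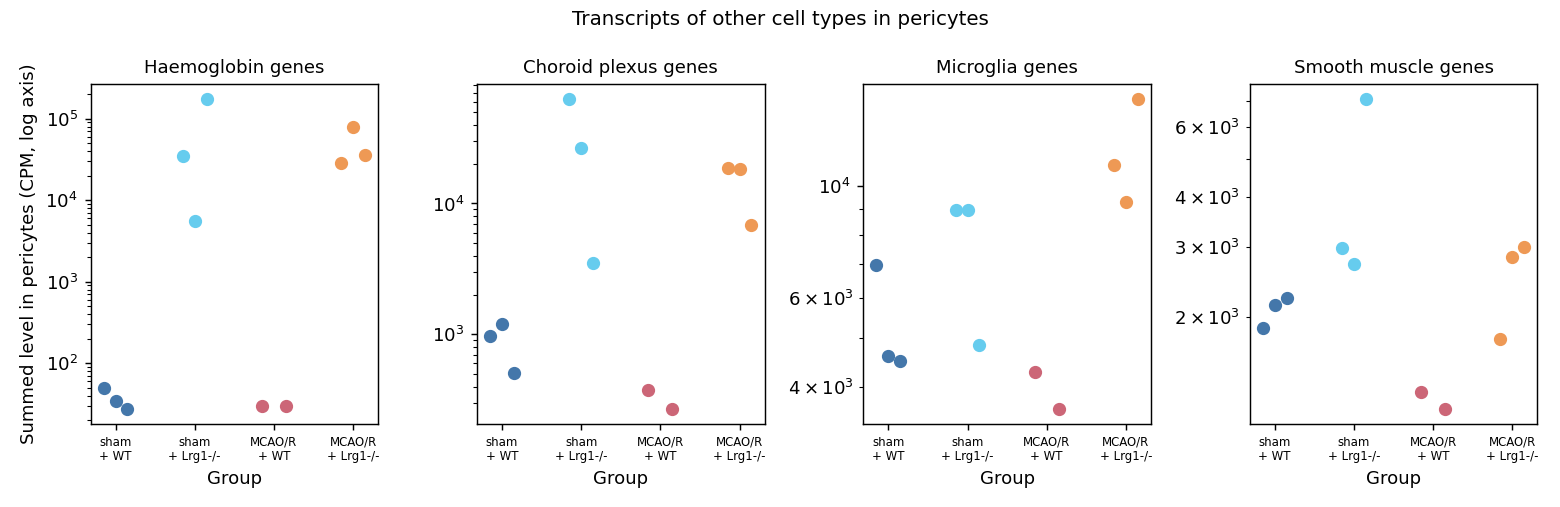
Summed CPM (log axis) in pericytes of haemoglobin, choroid plexus, microglial and smooth muscle genes, with 1 point per library and the 4 groups along the horizontal axis. Haemoglobin and choroid plexus sums of the 6 Lrg1-/- libraries all lie above those of the 5 WT libraries, while the ranges of microglial and smooth muscle sums overlap.

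Fewer of the 6 genes were seen per cell in the Lrg1-/- libraries, which is a description, since these genes chose the cells. All 6 were detected in 49.0%, 61.3% and 62.4% of sham + WT pericytes and in 63.4% and 72.2% of MCAO/R + WT pericytes. In the Lrg1-/- libraries this share was 17.5%, 18.5% and 22.2% after sham surgery and 21.1%, 22.3% and 20.5% after MCAO/R. Haemoglobin made up over 1% of the UMIs in no WT pericyte, and in 22.5%, 11.1% and 22.2% of sham + Lrg1-/- pericytes and 10.5%, 42.0% and 42.3% of MCAO/R + Lrg1-/- pericytes. At least 10 myeloid UMIs were held by 24.3%, 9.79% and 7.18% of sham + WT and 23.0% and 9.86% of MCAO/R + WT pericytes, and by 37.5%, 37.0% and 11.1% of sham + Lrg1-/- and 47.4%, 45.5% and 78.2% of MCAO/R + Lrg1-/- pericytes. Median depth was alike, with 3218 to 4760 UMIs per pericyte over the 11 libraries. In 4 of the 6 Lrg1-/- libraries the number of deposited barcodes was a round one (15500, 9000, 5650 and 8500). The WT libraries had 15699, 10590 and 10172 barcodes after sham surgery and 10606 and 13135 after MCAO/R. The study's methods name Cell Ranger for telling cell barcodes apart. Whether a number of cells was set for the libraries with round numbers is not given in the sources used here. The genotype comparisons were therefore repeated without the pericytes that held over 1% haemoglobin, over 2% Ttr or at least 3 UMIs of 11 lymphocyte genes, and, after MCAO/R only, with at least 5 of the 6 pericyte genes required, since no sham + Lrg1-/- library then had 20 pericytes. Both settings were chosen after seeing the data, and the part that foreign RNA plays in the results beyond them was not tested. Where pericytes or cells of foreign RNA are said below to be removed, only these haemoglobin, Ttr and lymphocyte limits are meant. Pericytes with myeloid transcripts stayed in. Of the 60 and 44 pericytes so kept in MCAO/R + Lrg1-/- replicates 2 and 5, 33 and 12 held fewer than 10 myeloid UMIs.

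Pericytes made up 1.88%, 1.97% and 1.92% of retained cells in the sham + WT libraries and 2.58% (95% exact binomial interval 2.28 to 2.91%) and 4.07% (3.73 to 4.43%) in the MCAO/R + WT libraries. They made up 0.422%, 0.476% and 0.277% in the sham + Lrg1-/- libraries and 0.295%, 0.625% and 0.228% in the MCAO/R + Lrg1-/- libraries. Both MCAO/R + WT libraries lay above the sham + WT libraries, and all Lrg1-/- libraries lay below all WT libraries. The mean share was 3.33% ± 1.05 (SD, n = 2) after MCAO/R and 1.92% ± 0.0466 (SD, n = 3) after sham surgery in WT mice, 1.73 times as high. It was 0.383% ± 0.213 (SD, n = 3) and 0.392% ± 0.103 (SD, n = 3) in Lrg1-/- mice, or 0.115 times the WT mean after MCAO/R and 0.204 times the WT mean after sham surgery. A two-sided exact permutation test over libraries gave p = 0.1 for each of the 3 differences, which is the smallest value these group sizes allow, and an adjusted p of 0.133 over the 4 comparisons. The Lrg1-/- groups overlapped, with a difference between their means of -0.00908 percentage points (exact permutation p = 1).

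Counted against the vascular cells, the WT groups overlapped. Of the vascular cells (pericytes, smooth muscle and endothelium), pericytes made up 9.43%, 8.87% and 6.52% in the sham + WT libraries and 8.50% and 16.1% in the MCAO/R + WT libraries, with an exact permutation p of 0.3. With every cell thinned to 1000 UMIs the groups lay apart on this scale too, at 13.7%, 14.8% and 10.9% against 16.3% and 27.0% (exact permutation p = 0.1). Without MCAO/R + WT replicate 2, the difference in the share of all retained cells was 0.663 percentage points in place of 1.41. The lower share in Lrg1-/- mice also held among vascular cells, at 3.13%, 3.03% and 1.98% after sham surgery and 3.96%, 2.54% and 3.78% after MCAO/R. The genotype difference was smaller as a ratio when cells with 2 of the 6 genes were counted as well, an alternative chosen after seeing the data. The mean was then 1.07% in MCAO/R + Lrg1-/- against 4.39% in MCAO/R + WT libraries (0.245 times) and 0.994% against 2.39% after sham surgery (0.416 times), with no overlap under either surgery (exact permutation p = 0.1 each). With at least 4 of the 6 genes the ratios were 0.0788 and 0.156. The MCAO/R + Lrg1-/- libraries held 58533 retained cells in all against 22411 in MCAO/R + WT. The study left out predicted doublets and clusters with markers of both red blood cells and microglia. No such clusters were left out here, and what that would change in the share was not tested. Fewer pericytes in the tissue, fewer released by the dissociation and pericytes that missed the rule because fewer of its genes were detected cannot be told apart here. Neither can pericytes dropped because genes of other cells were detected in them. Of P2ry12, Tmem119, Mog, Aqp4 and Kcnj13, exactly 1 was detected in 47.9%, 35.1% and 34.3% of sham + WT members and 21.4% and 30.6% of MCAO/R + WT members. In Lrg1-/- members this was 62.5%, 63.0% and 55.6% after sham surgery and 42.1%, 36.6% and 59.0% after MCAO/R. The share also depends on how many barcodes were called cells, and the part of the round barcode numbers of 4 Lrg1-/- libraries in it was not tested.

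**Figure D2:**
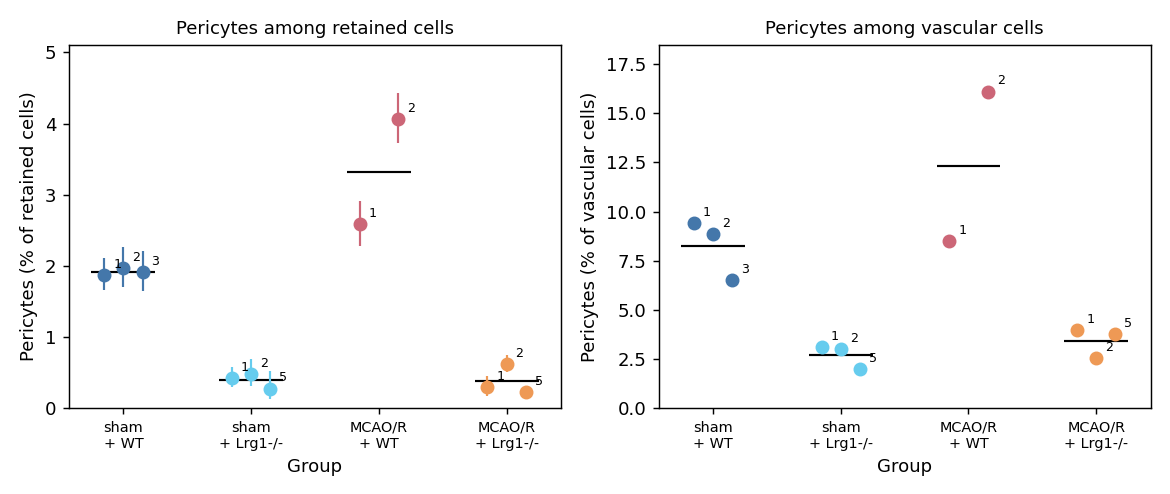
Pericytes as a percentage of the retained cells (left, with 95% exact binomial intervals) and of the vascular cells (right) of a library, with 1 numbered point per replicate, the group mean as a black line and the 4 groups along the horizontal axis. On the left the WT points lie between 1.88% and 4.07%, with both MCAO/R points above the sham points, and the Lrg1-/- points lie between 0.228% and 0.625%, while on the right MCAO/R + WT replicate 1 lies among the sham + WT points.

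Gene expression was compared on UMIs summed over the pericytes of a library, with edgeR's quasi-likelihood test and Benjamini-Hochberg adjustment over 10551 genes outside the rule. Calls needed an adjusted p under 0.05 together with a change of over 0.25 on the natural-log scale, and log2 fold changes are given with a standard error (SE). This SE was derived from the test, as the absolute log2 fold change over the square root of the F statistic. The labels do not state more than the surgery and genotype of a mouse, so p-values measure the spread between these libraries.

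In WT pericytes, 234 genes differed between MCAO/R and sham surgery, 157 of them higher and 77 lower after MCAO/R (2.22% of all genes tested, 1.49% higher and 0.73% lower). For all 234 the MCAO/R libraries lay apart from the sham libraries. The same held for 829 of the 830 genes called between the genotypes after MCAO/R, so that lying apart adds nothing to a call. The share of all tested genes that lay apart is not given here. The number of 234 calls rested on few libraries. It was 60 without sham + WT replicate 2, 72 without sham + WT replicate 3, 106 without sham + WT replicate 1 and 133 without MCAO/R + WT replicate 2. The genes described next without a remark on a left-out library were called whichever of the 9 libraries was left out.

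Among the called genes at least as high in pericytes as in the other cells of their libraries, Angptl4, a secreted inhibitor of lipoprotein lipase induced by fasting and hypoxia, stood at 6.81, 8.49 and 3.44 CPM after sham surgery and at 343 and 254 CPM after MCAO/R (log2 fold change 5.53, SE 0.36, adjusted p = 4.39e-06). Spp1, which encodes the matrix cytokine osteopontin, rose from 71.0, 243 and 39.0 CPM to 4377 and 2203 CPM (4.80, SE 0.65, adjusted p = 0.00177). Both were at low levels in every sham library and high in both MCAO/R libraries. Adra1a, an alpha-1 adrenergic receptor through which noradrenaline contracts mural cells, rose from 0.973, 3.18 and 1.15 CPM to 24.5 and 47.9 CPM (4.28, SE 0.54, adjusted p = 0.00145). Jaml, a junctional adhesion protein best known on leukocytes, rose from 8.76, 4.25 and 6.89 CPM to 89.0 and 63.4 CPM (3.48, SE 0.38, adjusted p = 0.000575). Trp53inp1, a p53-induced protein, rose from 20.4, 22.3 and 25.3 CPM to 147 and 165 CPM (2.79, SE 0.27, adjusted p = 0.000238), and Ttc38 from 9.73, 14.9 and 10.3 CPM to 78.1 and 88.8 CPM (2.84, SE 0.32, adjusted p = 0.000592).

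The share of pericytes with a transcript is given for Spp1, Angptl4 and Jaml over the pooled cells of a group. MCAO/R + WT replicate 2 supplied 507 of the 764 pericytes of its group. With every cell thinned to 1000 UMIs, Spp1 was detected in 4.57% of 634 sham + WT pericytes and 38.6% of 764 MCAO/R + WT pericytes, and Angptl4 in 0.473% and 28.1%. Without thinning the shares were 9.31% and 54.7% for Spp1 and 2.52% and 65.6% for Angptl4, at median depths of 4076 and 4307 UMIs. In endothelial cells the thinned shares were 0.172% and 6.30% for Spp1 and 1.56% and 12.1% for Angptl4, and in smooth muscle cells Spp1 reached 5.16% and Angptl4 15.7% after MCAO/R. Spp1 was also abundant outside the vessel wall, at 77.0 to 650 CPM of library totals in the other retained cells of the MCAO/R + WT libraries, and how much of the pericyte signal was free RNA was not tested. Jaml was detected in 0.315% and 7.46% of pericytes, against 0.0625% and 0.160% of endothelial cells and 0.148% and 1.72% of smooth muscle cells.

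Other genes rose in both MCAO/R libraries with calls that a single library decided. Saa3, an acute phase apolipoprotein, stood at 0.973, 1.06 and 3.44 CPM after sham surgery and at 250 and 8.48 CPM after MCAO/R (6.04, SE 1.35, adjusted p = 0.0368). The 2 MCAO/R libraries thus differed widely for Saa3, and its adjusted p was 0.400 without MCAO/R + WT replicate 1 and 0.147, 0.183 and 0.128 without sham + WT replicates 1, 2 and 3. Fabp4, a fatty acid carrier of capillary endothelium and fat, had 2 UMIs in the 3 sham libraries and 161 in the 2 MCAO/R libraries, a ratio of 55.1 (exact counting interval 15.0 to 459; adjusted p 0.0601, 0.0828 and 0.0637 without sham + WT replicates 1, 2 and 3). Stc1, which encodes the secreted hormone stanniocalcin, stood at 8.76, 15.9 and 6.89 against 173 and 36.1 CPM (adjusted p 0.0794, 0.0689 and 0.0805 without the same libraries). Hsd11b1, the enzyme that regenerates active glucocorticoid from its inert 11-keto form, rose from 2.92, 1.06 and 4.59 CPM to 27.9 and 17.3 CPM (2.92, SE 0.52, adjusted p = 0.0108), with an adjusted p of 0.0569, 0.0784 and 0.0679 without sham + WT replicate 1, sham + WT replicate 2 and MCAO/R + WT replicate 1.

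**Figure D3:**
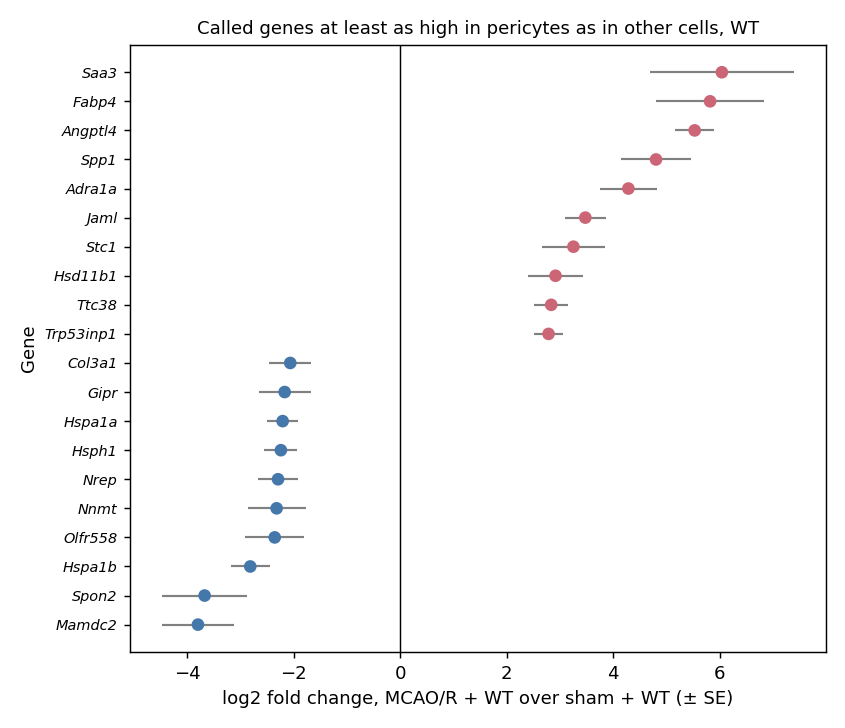
Log2 fold change ± SE in WT pericytes, MCAO/R over sham surgery, of the 10 genes with the highest rise and the 10 with the strongest fall among called genes whose mean level in pericytes, in the group where it was higher, was at least that in the other cells of the same libraries (predicted genes left out). Called genes outside this filter, such as Zbtb16 and Cxcl12, are not plotted. The rises extend from 2.79 for Trp53inp1 to 6.04 for Saa3, whose error bar is the widest among them, and the falls from -2.06 for Col3a1 to -3.79 for Mamdc2.

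The gene list with the most calls in WT pericytes held genes induced by glucocorticoids, the adrenal stress hormones, and metallothioneins, small metal-binding proteins that the same hormones induce. Of 16 such genes 11 were called higher and none lower, beside 1.49% called higher among all genes tested. This list, like the others, was chosen with earlier results of these data known, so that the gap to that share is a description. The median log2 fold change of the list was 2.20, beside 0.00 for all genes, and 15 of the 16 were positive. Over 25 other settings 6 to 13 genes of the list were called higher, with 8 without MCAO/R + WT replicate 2, and with at least 5 of the 6 pericyte genes required there were 11.

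Zbtb16, a zinc finger transcription factor (chr9:48654297-48836222, minus strand, GRCm38), stood at 8.76, 2.12 and 6.89 CPM after sham surgery and at 253 and 350 CPM after MCAO/R (5.63, SE 0.36, adjusted p = 4.39e-06). Fkbp5, the co-chaperone that dampens the glucocorticoid receptor (chr17:28399094-28517527, minus strand), rose from 8.76, 4.25 and 3.44 CPM to 139 and 180 CPM (4.80, SE 0.32, adjusted p = 4.39e-06). For both genes every MCAO/R library was more than 10 times above every sham library. Cdkn1a, the cell cycle inhibitor p21, rose from 69.1, 59.4 and 45.9 CPM to 297 and 322 CPM (2.41, SE 0.19, adjusted p = 3.59e-05). Tsc22d3, the anti-inflammatory factor GILZ, rose from 87.6, 90.2 and 83.8 CPM to 372 and 338 CPM (2.02, SE 0.23, adjusted p = 0.000575), and Sgk1, a kinase that regulates ion transport, from 79.8, 57.3 and 52.8 CPM to 234 and 427 CPM (2.38, SE 0.31, adjusted p = 0.00145).

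Mt1, a metallothionein, was the most abundant of the group, at 284, 276 and 234 CPM after sham surgery and 1889 and 880 CPM after MCAO/R (2.39, SE 0.30, adjusted p = 0.00124). Mt2 rose from 25.3, 21.2 and 25.3 CPM to 477 and 109 CPM (3.59, SE 0.53, adjusted p = 0.00349). For both, MCAO/R + WT replicate 1 was the higher library. Ddit4, an inhibitor of mTORC1, rose from 45.7, 29.7 and 37.9 CPM to 112 and 153 CPM (1.81, SE 0.26, adjusted p = 0.0025). The remaining calls of the list depended on 1 library. Hif3a, an inhibitory relative of the hypoxia-inducible factors, had 3 UMIs in the sham libraries against 129 (ratio 29.5, exact counting interval 9.86 to 145; adjusted p 0.0634 without MCAO/R + WT replicate 2). Plin4, a lipid droplet protein, had no UMI in the sham libraries and 84 after MCAO/R, a level at least 15.5-fold higher against a floor of 3 counts over the group (adjusted p 0.132, 0.170 and 0.134 without sham + WT replicates 1, 2 and 3 and 0.318 without MCAO/R + WT replicate 2). Sult1a1, a sulfotransferase, rose from 21.4, 43.5 and 24.1 CPM to 70.0 and 116 CPM (1.67, SE 0.30, adjusted p = 0.0104; 0.0622, 0.0665 and 0.114 without sham + WT replicates 1 and 3 and MCAO/R + WT replicate 2). Per1, Mt3, Errfi1, Nfkbia and Dusp1 were not called.

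The promoters of 15 of the 16 genes were at hand in RefSeq (GRCm38.p6), and a palindromic glucocorticoid response element, spelled as GNACA and TGTNC with 3 bases between them, was sought on both strands in the 250 bases before each start. It was present in 2 of the 15, Mt1 and Sgk1, and in 127 of all 32851 promoters (0.387%). The stretches around these matches are shown because both genes were called in WT pericytes, with the match in capitals and 40 bases on either side. That of Mt1 is chr8:94178955-94179047 (plus strand, 94 bases before the start) and that of Sgk1 is chr10:21993662-21993754 (plus strand, 188 bases before the start).
Mt1: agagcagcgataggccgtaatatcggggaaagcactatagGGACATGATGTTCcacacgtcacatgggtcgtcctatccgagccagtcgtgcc
Sgk1: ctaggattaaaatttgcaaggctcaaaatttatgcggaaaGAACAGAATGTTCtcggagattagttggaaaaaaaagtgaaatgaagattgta
A match is a description of the letters, and the 13 promoters without it may hold other forms of the element or have it elsewhere.

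Endothelial and smooth muscle cells of the WT libraries held Fkbp5, Zbtb16 and Cdkn1a at higher levels after MCAO/R as well. In CPM of library totals, Fkbp5 stood at 4.82 to 5.10 in endothelial cells and 3.10 to 6.93 in smooth muscle cells of the sham + WT libraries, and at 225 to 296 and 129 to 136 in those of the MCAO/R + WT libraries. Zbtb16 stood at 7.72 to 24.6 and 23.5 to 28.7 after sham surgery and at 370 to 518 and 184 to 230 after MCAO/R. Cdkn1a was already at 455 to 704 CPM in endothelial cells and 505 to 653 CPM in smooth muscle cells after sham surgery, above the level in sham + WT pericytes, and reached 946 to 1079 and 841 to 944 CPM. These values are descriptions without a test between cell types.

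The heat shock genes called in WT pericytes were lower after MCAO/R. Of 25 heat shock and endoplasmic reticulum folding genes 4 were called lower and none higher after MCAO/R (0.73% of all genes were called lower), with a median of -0.43 and 22 of 25 negative. Hspa1a, the inducible HSP70 chaperone, stood at 2664, 3819 and 2724 CPM in the sham + WT libraries and at 705 and 625 CPM in the MCAO/R + WT libraries (-2.20, SE 0.29, adjusted p = 0.00145). Its near-identical copy Hspa1b stood at 795, 1609 and 1053 against 168 and 160 CPM (-2.81, SE 0.37, adjusted p = 0.00145), and the split of reads between the 2 copies is uncertain. Hsph1, the HSP110 co-chaperone, fell from 143, 296 and 228 CPM to 51.0 and 43.5 CPM (-2.24, SE 0.31, adjusted p = 0.00202). The sham libraries were thus the high ones, with Hspa1a in 63.2% of thinned sham pericytes against 36.4% after MCAO/R. The fourth, Dnajb1, an HSP40 co-chaperone, fell by 1.14 on the log2 scale (SE 0.21, adjusted p = 0.0153), with an adjusted p of 0.0725, 0.0851, 0.0517 and 0.146 without sham + WT replicates 1, 2 and 3 and MCAO/R + WT replicate 2. Endothelial cells of the same libraries held Hspa1a at 823 to 1461 CPM of library totals after sham surgery and 189 to 200 CPM after MCAO/R, and smooth muscle cells at 785 to 1241 and 491 to 568 CPM. Heat shock genes can be induced while tissue is dissociated, and a difference in handling between the libraries was not tested. Immediate early genes, which dissociation also induces, were called in neither direction by edgeR (0 of 22, median -0.38, 1 higher and 7 lower at an unadjusted p below 0.05, and by DESeq2 0 higher and 1 lower). Of all 10551 genes, 1270 had an unadjusted edgeR p below 0.05 in either direction.

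The pair of inverted units that heat shock factors recognise, spelled GAANNTTC, was found in 6 of the 25 list promoters at hand, those of Asns, Hspa1a, Hspa1b, Hspb1, Hspd1 and Hspe1, and in 2199 of all 32851 promoters (6.69%), with both strands read by the palindromic spelling. The stretch around the match was the same in the HSP70 copies, whose reads are hard to separate. It lies at chr17:34959295-34959382 for Hspa1b and chr17:34972213-34972300 for Hspa1a, 104 bases before the start and shown on the minus strand of the genes, with the match in capitals.
Hspa1b: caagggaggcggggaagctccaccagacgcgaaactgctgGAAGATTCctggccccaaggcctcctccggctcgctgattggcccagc
Hspa1a: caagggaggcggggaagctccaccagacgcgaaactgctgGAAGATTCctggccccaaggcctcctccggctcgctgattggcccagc

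**Figure D4:**
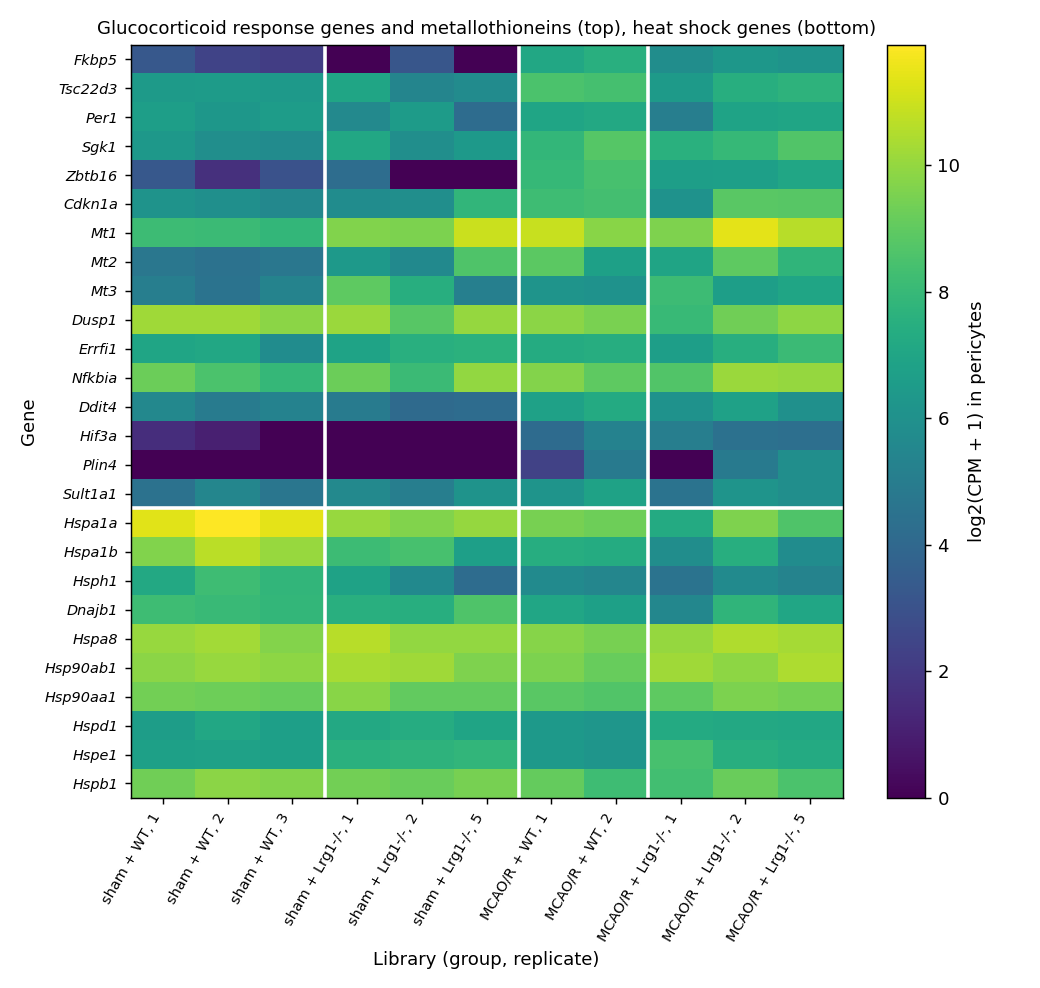
Level in pericytes, as log2(CPM + 1) in colour, of the 16 glucocorticoid-induced and metallothionein genes (top) and of 10 heat shock genes (bottom), with 1 column per library and white lines between the groups. In the WT columns Fkbp5, Zbtb16, Cdkn1a and Mt1 are brighter after MCAO/R than in any sham library, and Hspa1a, Hspa1b and Hsph1 are darker.

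Among 26 chemokines, cytokines and adhesion molecules, 2 were called higher and 2 lower (1.49% and 0.73% among all genes), with a median of 0.36 and 21 positive. Without MCAO/R + WT replicate 2, 8 were called higher and 2 lower (median 0.67). Without MCAO/R + WT replicate 1 the median was -0.037. Without sham + WT replicates 1, 2 and 3 in turn 1, 0 and 0 were called higher and 1 lower each time. Cxcl12, the chemokine that retains leukocytes and stem cells in their niche, stood at 161, 197 and 175 CPM after sham surgery and at 35.3 and 46.1 CPM after MCAO/R (-2.10, SE 0.21, adjusted p = 0.000238). Both MCAO/R libraries were far below every sham library, and endothelial cells held Cxcl12 at 1518 to 1693 CPM of library totals after sham surgery and at 280 to 402 CPM after MCAO/R. Outside this list, Lcn2, the iron-carrying acute phase protein lipocalin 2, had no UMI in sham + WT pericytes and 244 after MCAO/R (90.4 and 40.9 CPM), at least 62.1-fold higher (adjusted p = 0.000761). Endothelial cells held Lcn2 at 1321 to 1725 CPM of library totals after MCAO/R. Neutrophil transcripts (8 genes, Lcn2 among them) summed to 4 to 24 CPM in sham + WT pericytes and to 105 and 67 CPM in MCAO/R + WT pericytes. Lcn2 itself supplied 90.4 and 40.9 CPM of the MCAO/R + WT sums, so that they are no separate measure of neutrophil RNA. On the list, the neutrophil chemoattractant Cxcl2 stood at 15.6, 6.37 and 8.04 against 258 and 192 CPM (4.45, SE 0.81, adjusted p = 0.0126; 0.0925 and 0.0716 without sham + WT replicates 2 and 3). Neither Ptgds, a prostaglandin D synthase that was at 2436 to 7340 CPM in other cells after MCAO/R, nor the CXCL12 scavenger Ackr3 kept its call without sham + WT replicate 2 (adjusted p 0.15 for Ptgds, and above 0.05 for Ackr3 whichever of the 5 WT libraries was left out).

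Genes of the matrix and its turnover changed singly. Timp3, the matrix-bound metalloproteinase inhibitor, rose from 227, 405 and 316 CPM to 1319 and 968 CPM (1.86, SE 0.30, adjusted p = 0.00691). Of 17 proteases and inhibitors 2 were called higher and 2 lower (1.49% and 0.73% among all genes; 1 to 3 and 0 to 2 with each library left out in turn), and of 29 basement membrane and matrix genes 1 each, Spp1 and the fibrillar collagen Col3a1 (51.6, 79.6 and 98.7 against 25.1 and 12.9 CPM; adjusted p 0.0153, and 0.0841, 0.073 and 0.132 without sham + WT replicates 2 and 3 and MCAO/R + WT replicate 2). The urokinase receptor Plaur stood at 2.92, 6.37 and 4.59 against 89.7 and 17.3 CPM (3.45, SE 0.68, adjusted p = 0.0198), a call lost without any of the sham + WT libraries (0.0991, 0.0925 and 0.0901) or MCAO/R + WT replicate 1 (0.0844). Fibroblast transcripts summed to 1274 to 2495 CPM over the WT libraries.

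Genes that mark pericytes but took no part in the rule were called in both directions. Of 25 such genes 3 were called higher and 2 lower (1.49% and 0.73% among all genes), with a median of -0.30 and 18 negative. Over the fits that left out 1 library, 0 to 3 were called higher and 1 to 2 lower. Pdgfrb stood at 933, 1017 and 1098 CPM after sham surgery and 1018 and 919 CPM after MCAO/R, with overlapping groups and no call (-0.07). The proteoglycan NG2, encoded by Cspg4, stood at 331, 412 and 444 against 173 and 216 CPM, and the proline transporter Slc6a20a at 772, 884 and 864 against 1315 and 1540 CPM. The calls of these 2 (adjusted p 0.0414 and 0.0465) were lost whichever of the 5 WT libraries was left out, and for Slc6a20a the adjusted p was then between 0.0744 and 0.361. The transcription factor gene Foxf2 and the connexin 37 gene Gja4 stood at 31.1, 29.7 and 41.3 against 75.4 and 70.4 CPM and at 266, 238 and 274 against 448 and 405 CPM, and both calls were likewise lost whichever of the 5 libraries was left out. Outside the lists, the phospholipase Pla1a rose from 153, 137 and 176 CPM to 437 and 465 CPM (1.54, SE 0.18, adjusted p = 0.000746), the intracellular fibroblast growth factor Fgf12 from 58.4, 55.2 and 99.9 CPM to 198 and 236 CPM (1.62, SE 0.25, adjusted p = 0.00442, and 0.0513 without sham + WT replicate 2), and the transcription cofactor Lbh fell by 1.62 on the log2 scale (SE 0.21, adjusted p = 0.00125). These 3 were named after their values were seen.

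Of 24 genes of the contractile apparatus 2 were called, both lower (0.73% lower and 1.49% higher among all genes), with a median of -0.34 and 9 lower at an unadjusted p below 0.05. At that limit 1270 of all 10551 genes differed in either direction. Tpm2, a tropomyosin of smooth muscle, stood at 161, 176 and 146 CPM after sham surgery and 79.5 and 63.4 CPM after MCAO/R (-1.18, SE 0.20, adjusted p = 0.0074; 0.0597 without sham + WT replicate 2 and 0.107 without MCAO/R + WT replicate 2). Myl9, the myosin light chain whose phosphorylation drives contraction, stood at 1113, 1253 and 1394 against 595 and 663 CPM (-0.99, SE 0.19, adjusted p = 0.0163; 0.0852, 0.0743, 0.108 and 0.0861 without sham + WT replicates 2 and 3 and MCAO/R + WT replicates 1 and 2). The groups did not overlap for either gene. The smooth muscle transcript sum of the same pericytes was 1872, 2135 and 2233 CPM after sham surgery and 1289 and 1171 CPM after MCAO/R, and the sum includes both genes. Among 25 vasoactive receptors and channels 1 was called higher and 2 lower (1.49% and 0.73% among all genes; 0 to 2 and 1 to 3 with each library left out in turn). Itpr1, the calcium release channel of the endoplasmic reticulum, rose from 620, 583 and 530 CPM to 1051 and 1345 CPM (1.05, SE 0.18, adjusted p = 0.00809; 0.069, 0.061 and 0.112 without sham + WT replicates 2 and 3 and MCAO/R + WT replicate 2), whereas the parathyroid hormone receptor Pth1r (400, 370 and 420 against 215 and 213 CPM) was lower, without holding its call when any of the 5 libraries was left out.

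For several other programmes few genes or none were called at this depth. Of 25 interferon response genes edgeR called none (median 0.53, 21 positive, 5 higher at an unadjusted p below 0.05 beside 1270 of all 10551 genes in either direction, none by DESeq2). None of 23 YAP and cytoskeletal targets, 16 apoptosis genes and 13 genes of the mitochondrial genome was called either. Among 29 genes of PDGF and TGF-beta signalling, Tgfbi was called higher and Tgfb2 lower. Among 26 hypoxia and glycolysis genes Ddit4 and the glucose transporter Slc2a1 were called higher, beside 1.49% higher and 0.73% lower among all genes. Tgfbi, Tgfb2 and Slc2a1 lost their calls in 4 or 5 of the 5 fits that left out a WT library.

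In Lrg1-/- pericytes the same surgery gave 45 called genes, 23 higher and 22 lower (0.426% of all genes, 0.218% and 0.209%), from 2 libraries against 2. Of the 23 genes, 11 were among the 157 called higher in WT pericytes (47.8% and 7.01% of the 2 lists). With the pericytes of foreign RNA removed, sham + Lrg1-/- replicate 1 was the only sham library of the genotype left and 3 genes were called, and without sham + Lrg1-/- replicate 1 in the unfiltered data there were 11. Cdkn1a stood at 54.2 and 57.4 CPM after sham surgery and at 463 and 440 CPM after MCAO/R (3.02, SE 0.30, adjusted p = 0.00123), against 297 and 322 CPM in MCAO/R + WT. Crispld2, a secreted glycoprotein also induced by glucocorticoids, stood at 48.1 and 0 CPM against 354 and 282 CPM (3.53, SE 0.54, adjusted p = 0.0148), while WT pericytes held it at 19.5 to 35.0 CPM after sham surgery and 29.5 to 37.4 CPM after MCAO/R. Both calls held whichever of the 9 libraries was left out, but not under every setting. Both were lost with the pericytes of foreign RNA removed (2.73 and 2.29, adjusted p = 0.077 and 0.173). They were also lost with at least 10 pericytes per library (adjusted p = 0.0945 and 0.185) and with cells thinned to 1000 UMIs (0.76 and 2.18, adjusted p = 0.473 and 0.116). The call of Crispld2 was also lost under the replicate block (adjusted p = 0.0666) and with at least 4 of the 6 pericyte genes required (0.81, adjusted p = 0.640). The libraries outside the fit held Cdkn1a at 225 and 66.3 CPM and Crispld2 at 17.3 and 0 CPM (sham and MCAO/R).

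Of the 16 glucocorticoid and metallothionein genes 2 were called higher in Lrg1-/- pericytes, Cdkn1a and Fkbp5 (0.218% among all genes), and 1 to 5 with each library left out in turn. On this list 14 were positive and the median was 1.56, with 12 higher and 1 lower at an unadjusted p below 0.05 (by DESeq2 5 higher and 1 lower). Among all 10551 genes the median was 0.04, and 1366 had an unadjusted edgeR p below 0.05 in either direction. Fkbp5 had 1 UMI in the sham libraries of the fit and 54 in those of MCAO/R, a ratio of 20.5 (exact counting interval 3.52 to 823; adjusted p = 0.0445, and 0.217, 0.0696, 0.0674 and 0.0807 without sham + Lrg1-/- replicates 1 and 2 and MCAO/R + Lrg1-/- replicates 2 and 5). Zbtb16 stood at 18.1 and 0 CPM against 105 and 133 CPM without a call (3.49, adjusted p = 0.0545). Spp1 stood at 54.2 and 49.2 CPM against 5426 and 1499 CPM (6.05, SE 0.96, adjusted p = 0.0159; 0.167 and 0.130 without sham + Lrg1-/- replicates 1 and 2), and Cxcl12 at 114 and 107 CPM against 30.3 and 25.9 CPM (adjusted p = 0.0339; 0.163, 0.0819, 0.0747 and 0.14 without each of the 4 libraries in turn). Among the 22 genes called lower were lymphocyte genes such as Gzma, Nkg7, Skap1 and Ccl5, and 12.5% of the pericytes of sham + Lrg1-/- replicate 1 held at least 3 lymphocyte UMIs against at most 3.85% in the other libraries. Among the 23 called higher were the neutrophil genes S100a8, S100a9 and Lcn2, 3 of 5 tested (0.218% among all genes), of which Lcn2 was called higher in WT pericytes too. S100a8 had 402 UMIs after MCAO/R against 1 (ratio 152, exact counting interval 27.2 to 6035). No neutrophil gene was called without either sham + Lrg1-/- library, without any sham + WT library or with the foreign RNA cells removed, and 1 was called without MCAO/R + Lrg1-/- replicate 5. Of the endothelial tracer genes 3 of 9 were called lower, among them Cxcl12 as in WT pericytes, and of the choroid plexus genes 2 of 11 (0.209% among all genes). Without sham + Lrg1-/- replicate 1 or MCAO/R + Lrg1-/- replicate 5 none of either was called, and without either MCAO/R + WT library 6 choroid plexus genes were. The part of RNA of these cells in the surgery comparison of Lrg1-/- pericytes was not tested. The heat shock list had no call (median 0.27, 6 higher and 1 lower at an unadjusted p below 0.05 beside the 1366 of all 10551 genes above, none by DESeq2).

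Between the genotypes after MCAO/R, 830 genes differed, 516 of them higher and 314 lower in Lrg1-/- pericytes (7.87% of all genes, 4.89% and 2.98%), and 702 differed after sham surgery, 455 higher and 247 lower (6.65%, 4.31% and 2.34%). Of the 516 and 455 genes called higher, 213 were shared (41.3% and 46.8% of the lists), and of the 314 and 247 called lower, 105 (33.4% and 42.5%), in comparisons with no library in common. With the pericytes of foreign RNA removed, the counts were 524 and 47, and the sham comparison then rested on sham + Lrg1-/- replicate 1 alone. With pericytes of at least 10 myeloid UMIs removed as well, 49 genes were called after MCAO/R, and MCAO/R + Lrg1-/- replicate 2 was then the only library of its group with 20 pericytes, so that this fit has 1 library in that group. With at least 5 of the 6 pericyte genes 921 were called. Left-out libraries moved the counts too, to 260 without MCAO/R + WT replicate 2, 332 without MCAO/R + Lrg1-/- replicate 5 and 508 without MCAO/R + Lrg1-/- replicate 2 for the first, and to 142 without sham + Lrg1-/- replicate 1, 433 without sham + WT replicate 2 and 461 without sham + WT replicate 3 for the second. Scaling by library totals without TMM turned the balance to 412 higher and 639 lower after MCAO/R and 392 higher and 383 lower after sham surgery, with the median over all genes at -0.23 and -0.21 in place of -0.05 and -0.08.

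Among the genes called higher in Lrg1-/- pericytes were those known from blood cells. Hbb-bs, a beta globin, stood at 13.6 and 5.16 CPM in the MCAO/R + WT libraries and at 40069 and 19592 CPM in the 2 MCAO/R + Lrg1-/- libraries of the fit. Gzma, the granzyme of cytotoxic lymphocytes, had no UMI in MCAO/R + WT pericytes and was at least 135-fold higher in Lrg1-/- pericytes. After sham surgery it had 1 UMI in WT against 317 in Lrg1-/- pericytes (ratio 2858, exact counting interval 509 to 113226), and Nkg7 had 1 against 82 (739, 129 to 29549). After MCAO/R, all 6 haemoglobin, all 11 choroid plexus and all 12 microglial genes were called higher, and after sham surgery 5 of 6, 11 of 11 and 1 of 12. Of 5 neutrophil genes tested 3 were called higher after MCAO/R (4.89% among all genes), namely S100a8, S100a9 and Retnlg, and 3 or 4 whichever library was left out. After sham surgery edgeR and DESeq2 called none of them, and none had an unadjusted p below 0.05.

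The calls among genes that mark pericytes were all lower in the Lrg1-/- libraries. Of the 25 pericyte genes outside the rule, 10 were called lower and none higher after MCAO/R (2.98% and 4.89% among all genes), with a median of -0.64 and 23 negative. After sham surgery 12 were called lower and none higher (2.34% and 4.31% among all genes), with a median of -1.11 and 23 negative. After MCAO/R, 8 were called lower with the pericytes of foreign RNA removed and 7 with at least 5 of the 6 pericyte genes required, and 5 without MCAO/R + Lrg1-/- replicate 5 and 6 without MCAO/R + WT replicate 2. In a fit of these groups alone and under the replicate block 5 were called lower, and 2 in cells with no UMI of a smooth muscle or endothelial gene of the rule. There was 1 with a Bonferroni adjustment and 1 with myeloid cells removed as well, which left 1 library in the MCAO/R + Lrg1-/- group. After sham surgery, none was called with the pericytes of foreign RNA removed (median -0.72) or with a Bonferroni adjustment, 3 without sham + Lrg1-/- replicate 1 and 8 without sham + WT replicate 2. Haemoglobin and choroid plexus transcripts were 7.30% and 1.66% of the pericyte UMIs of MCAO/R + Lrg1-/- replicate 2 and 3.36% and 0.65% of those of replicate 5, and their part in these differences was not tested beyond the settings above.

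Slc6a20a, the proline transporter, showed the largest gap of this list after MCAO/R. It stood at 1315 and 1540 CPM in the MCAO/R + WT libraries and at 188, 422 and 337 CPM in the MCAO/R + Lrg1-/- libraries (-1.91, SE 0.21, adjusted p = 0.000464). With the pericytes of foreign RNA removed the difference was -1.79 (adjusted p = 0.000432), and with at least 5 of the 6 genes it was -1.41 (adjusted p = 0.000284). After sham surgery it stood at 772, 884 and 864 CPM in WT and 349, 394 and 243 CPM in Lrg1-/- libraries (-1.18, SE 0.21, adjusted p = 0.00471), a call lost with the foreign RNA cells removed (-0.81, adjusted p = 0.216) and without sham + Lrg1-/- replicate 1 (adjusted p = 0.0696). The libraries of the genotypes did not overlap under either surgery.

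P2ry14, the UDP-glucose receptor, stood at 618 and 760 CPM after MCAO/R in WT and at 243, 289 and 220 CPM in Lrg1-/- libraries (-1.43, SE 0.23, adjusted p = 0.00328, -1.24, adjusted p = 0.00563 with the foreign RNA cells removed, and -1.07, adjusted p = 0.00347 with at least 5 of the 6 genes). After sham surgery it stood at 478, 568 and 537 CPM against 211, 148 and 34.6 CPM (-1.53, SE 0.25, adjusted p = 0.00266, and -0.96, adjusted p = 0.215 with those cells removed). Art3, an ADP-ribosyltransferase-like surface protein, stood at 582 and 754 against 232, 247 and 120 CPM after MCAO/R and at 847, 678 and 731 against 181, 164 and 416 CPM after sham surgery (-1.84 and -2.12, adjusted p = 0.00291 and 0.0014, and -1.69 and -1.26, adjusted p = 0.00622 and 0.223 with those cells removed). With at least 5 of the 6 genes, Art3 was at -1.40 after MCAO/R (adjusted p = 0.00862). The scavenger collectin Colec12 was lower after MCAO/R (-1.48, SE 0.23, adjusted p = 0.0028), with -1.30 (adjusted p = 0.00622) and -1.21 (adjusted p = 0.00193) under these settings. Its sham call (-1.31) was lost without sham + Lrg1-/- replicate 1, with an adjusted p of 0.0801, and with the foreign RNA cells removed (-0.82, adjusted p = 0.293). Pdgfrb was not called under either surgery (-0.64, adjusted p = 0.079 after MCAO/R and -0.70, adjusted p = 0.0588 after sham surgery).

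**Figure D5:**
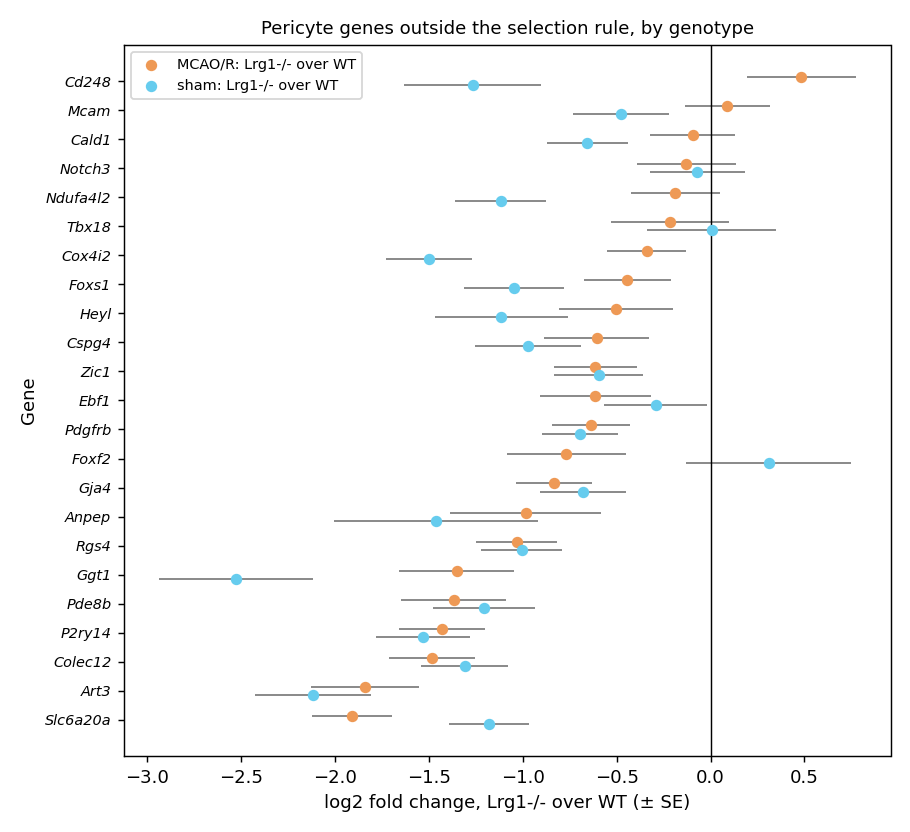
Log2 fold change ± SE in pericytes, Lrg1-/- over WT, of 23 of the 25 pericyte genes outside the rule, with MCAO/R in orange and sham surgery in blue. In each surgery 21 of the 23 plotted genes lie below 0.

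Some contractile genes were higher in Lrg1-/- pericytes. After MCAO/R 10 of 24 were called higher and 1 lower (4.89% and 2.98% among all genes), the lower one the non-muscle myosin Myh9, a call lost without any of the 4 MCAO/R libraries of the fit. The median was 0.66, and 6 were called higher without MCAO/R + WT replicate 2. With the foreign RNA cells removed 10 were called higher (median 0.72), with at least 5 of the 6 pericyte genes 8 (median 0.23), and in cells with no UMI of a smooth muscle or endothelial gene of the rule 3 of 21 tested (median -0.08). After sham surgery 5 were called higher (4.31% among all genes), 1 without sham + Lrg1-/- replicate 1, 3 without sham + WT replicate 3, and 1 with the foreign RNA cells removed. Tagln, the actin-binding protein transgelin, stood at 130 and 82.2 CPM in the MCAO/R + WT libraries and at 232, 510 and 592 CPM in the MCAO/R + Lrg1-/- libraries (2.39, SE 0.28, adjusted p = 0.000531). Acta2 stood at 151 and 83.6 against 365, 543 and 631 CPM (2.34, SE 0.28, adjusted p = 0.000655), and with at least 5 of the 6 pericyte genes required the difference was 1.25 (adjusted p = 0.114). Under that requirement Tagln was at 1.64 (adjusted p = 0.0118). Tpm2 stood at 79.5 and 63.4 against 254, 284 and 337 CPM (2.12, SE 0.22, adjusted p = 0.000243, and 1.21, adjusted p = 0.0108 under that requirement). With the foreign RNA cells removed the differences of Tagln, Acta2 and Tpm2 were 2.39, 2.41 and 2.35 (adjusted p = 0.00157, 0.000648 and 0.000192). For all 3 the Lrg1-/- libraries were the higher ones. The smooth muscle markers tested outside the rule were, apart from Sncg, genes of this same contractile list (Acta2, Tagln, Myl9, Tpm2 and Des), so that they are no separate measure. The part of smooth muscle RNA in these differences was not tested beyond the settings above.

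The glucocorticoid genes called between the genotypes after MCAO/R were Zbtb16, Fkbp5 and Tsc22d3, 3 of 16 and lower in Lrg1-/- pericytes (2.98% lower and 4.89% higher among all genes), while the list's median was -0.05. None was called without MCAO/R + Lrg1-/- replicates 2 or 5 or MCAO/R + WT replicate 2. There was 1 lower without sham + WT replicate 2, and there were 2 higher and 2 lower without MCAO/R + WT replicate 1. With at least 5 of the 6 pericyte genes 3 were called higher and 3 lower, and with the foreign RNA cells removed 1 lower. Zbtb16 stood at 253 and 350 CPM in the WT and 99.5, 105 and 133 CPM in the Lrg1-/- libraries (-1.36, SE 0.32, adjusted p = 0.0207), with an adjusted p of 0.127, 0.0656 and 0.105 without MCAO/R + Lrg1-/- replicates 2 and 5 and MCAO/R + WT replicate 2. With the foreign RNA cells removed it was -1.07 (adjusted p = 0.057), and with at least 5 of the 6 genes -1.91 (adjusted p = 0.000703). Fkbp5 stood at 139 and 180 against 55.3, 76.9 and 68.0 CPM (-1.14, SE 0.29, adjusted p = 0.0316; 0.112, 0.15 and 0.166 without the same 3 libraries). Tsc22d3 stood at 372 and 338 against 88.5, 172 and 204 CPM (-0.92, SE 0.26, adjusted p = 0.0473; 0.207, 0.11, 0.106 and 0.0998 without each of the 4 MCAO/R libraries of the fit). With the foreign RNA cells removed Fkbp5 and Tsc22d3 were at -1.06 and -0.96 (adjusted p = 0.0674 and 0.0211), and with at least 5 of the 6 genes at -1.13 and -0.90 (adjusted p = 0.0332 and 0.0317). The groups did not overlap for the 3 genes.

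Angptl4, Trp53inp1 and Fgf12, called higher after MCAO/R in WT pericytes, were lower in Lrg1-/- than in WT pericytes after MCAO/R. Angptl4 and Trp53inp1 were named here after their values were seen, and both comparisons use the same MCAO/R + WT libraries. Cdkn1a, also called higher in WT, was at 463 and 440 CPM in the 2 Lrg1-/- libraries of the fit against 297 and 322 CPM in WT pericytes. The MCAO/R + Lrg1-/- library outside the fit lay below both WT libraries for Cdkn1a. In the libraries of the fit Spp1 was at 5426 and 1499 CPM in Lrg1-/- against 4377 and 2203 CPM in WT pericytes. Angptl4 stood at 343 and 254 CPM in WT against 58.2 and 123 CPM in the 2 Lrg1-/- libraries of the fit (-1.76, SE 0.33, adjusted p = 0.00774, and 0.0638 without MCAO/R + Lrg1-/- replicate 2). Trp53inp1 stood at 147 and 165 against 60.5 and 48.6 CPM (-1.50, SE 0.32, adjusted p = 0.0122, and 0.0506, 0.0906 and 0.0527 without MCAO/R + Lrg1-/- replicates 2 and 5 and MCAO/R + WT replicate 2). Fgf12 stood at 198 and 236 against 25.6 and 35.6 CPM (-2.85, SE 0.36, adjusted p = 0.000934). With the foreign RNA cells removed the differences were -1.49, -1.50 and -2.64 (adjusted p = 0.0204, 0.00622 and 0.00416), and with at least 5 of the 6 genes -1.75, -1.30 and -2.57 (adjusted p = 0.00385, 0.0111 and 0.000417). Saa1, an acute phase apolipoprotein, had 254 UMIs in the WT and 3 in the Lrg1-/- libraries, a ratio of 17.0 (exact counting interval 5.74 to 82.8). It is a close relative of Saa3, and reads of such relatives can be shared. After sham surgery Fgf12 was called lower in Lrg1-/- pericytes too. It then had 1 UMI in the Lrg1-/- libraries of the fit against 199 in the WT libraries, a ratio of 22.1 (exact counting interval 3.92 to 876).

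After MCAO/R 6 of 25 heat shock and folding genes were called higher in Lrg1-/- pericytes and none lower (4.89% and 2.98% among all genes), with a median of 0.68. Without MCAO/R + WT replicate 2 there were 3 called higher, and without sham + Lrg1-/- replicate 1 or 2 there were 10. There were 5 higher when the foreign RNA cells were removed and 11 with at least 5 of the 6 pericyte genes. The 6 included the endoplasmic reticulum chaperone Calr at 147 and 127 CPM in WT against 542, 491 and 495 CPM in Lrg1-/- libraries (1.85, SE 0.22, adjusted p = 0.000655, with 1.74 and 1.96 under the last 2 settings, adjusted p = 0.00161 and 0.000119). After sham surgery Hspa1a stood at 2664, 3819 and 2724 CPM in WT against 1065, 804 and 1039 CPM in Lrg1-/- libraries (-1.71, SE 0.29, adjusted p = 0.00368), a call lost with the foreign RNA cells removed (-0.92, adjusted p = 0.432). Hspa1b was lower too (-1.87, SE 0.39, adjusted p = 0.0114, with 0.181 and 0.0563 without sham + Lrg1-/- replicates 1 and 2 and 0.313 with the foreign RNA cells removed). With each library left out in turn, 0 to 1 genes of the list were called higher after sham surgery and 1 to 3 lower (4.31% and 2.34% among all genes). In the test of the interaction of genotype and surgery, which asks whether the genotype difference after MCAO/R departs from that after sham surgery, all 25 folding genes were positive with a median of 0.80, 11 were higher at an unadjusted p below 0.05, and none was called by edgeR or DESeq2 (Hspa1a 1.53, SE 0.42, adjusted p = 0.407). Among all 10551 genes the median of the interaction was 0.04, and 899 had an unadjusted edgeR p below 0.05 in either direction.

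The interaction was called for 1 of the 10551 genes (0.00948%), Cmss1, a homolog of a yeast factor of the small ribosomal subunit (chr16:57302000-57606864). It stood at 533, 560 and 553 CPM in sham + WT, 1595, 2199 and 1247 CPM in sham + Lrg1-/-, 664 and 498 CPM in MCAO/R + WT and 741, 356 and 392 CPM in MCAO/R + Lrg1-/- libraries. Sham + Lrg1-/- libraries were thus the high ones (interaction -2.42, SE 0.31, adjusted p = 0.0271), and with the pericytes of foreign RNA removed the adjusted p was 0.0573. It was 0.0558 and 0.108 without MCAO/R + Lrg1-/- replicates 2 and 5 and 0.111, 0.277 and 0.108 without sham + WT replicates 1, 2 and 3. At an unadjusted p below 0.05 there were 899 genes, and DESeq2 called 22. For Zbtb16 and Fkbp5 the interaction was -2.14 (SE 1.19, adjusted p = 0.664) and -0.47 (SE 1.54, adjusted p = 0.965), so that a different response of these genes to MCAO/R between the genotypes was not detectable with these libraries.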

How the data were processed

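The authors deposited unnormalized UMI counts for each gene in each barcode, made with Cell Ranger (7.0.1 in the file headers), whose aligner is STAR, on mm10. The study's methods name another version of Cell Ranger. The 11 libraries held 37159497 to 171813031 UMIs, with medians of 3190 to 11504 per retained cell. Replicates were grouped by their labels. No 2 libraries shared more than 1.15% of the smaller one's barcodes. The members and the gene lists were chosen with earlier results of these data known.

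Pericytes were taken by the rule given above, with no clustering and no doublet removal in the main analysis, since removal of the 6% highest doublet scores of each library is an alternative. Pericyte UMIs of a library were summed (119203 to 2581755 UMIs in the 9 libraries tested). The sums of all 4 groups entered one fit with edgeR 4.0.16 (limma 3.58.1, R 4.3.3), with TMM normalization, the package's filter on low counts and quasi-likelihood tests, because the MCAO/R + WT group has 2 libraries. Tests were two-sided, with Benjamini-Hochberg adjustment across the whole set of tested genes. The fit was also run on counts simulated from the mean levels of these libraries, and the outcome is not reported here. DESeq2 1.42.0 was an alternative, and the others were a Bonferroni adjustment, other size factors, no filter, other limits on pericyte genes, mitochondrial UMIs and cells per library, cells thinned to 1000 UMIs, fits of single comparisons, a replicate block and each library left out.

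Named were, for each comparison, the 10 called genes with the largest change in either direction that did not overlap between groups and were at least as high in pericytes as in other cells (clone names left out), up to 4 members of each list by adjusted p and up to 2 by level, Lrg1 and the genes of the rule. Other genes were named after their values were seen, and values of some genes are not reported here. Shares were compared by exact permutation tests. Exact binomial and counting intervals cover counting error only. Coordinates are from GENCODE M21. Levels were computed in Python 3.11.15 with pandas 2.3.3, scikit-learn 1.9.0, scipy 1.17.1 and numpy 2.4.6. The assignment of shared reads sets the level of each of several near-identical copies, such as the globins.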

Additional observations from a re-analysis of the deposited data

Results flagged for a closer look

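The genotype difference of Cmss1 was not the same under both surgeries by the test of the interaction (-2.42 on the log2 scale, SE 0.31, adjusted p = 0.0271), a call that did not hold under several settings. The adjusted p was 0.0558 and 0.108 without MCAO/R + Lrg1-/- replicates 2 and 5, 0.111, 0.277 and 0.108 without sham + WT replicates 1, 2 and 3, 0.209 under the replicate block, 0.333 with at least 10 pericytes per library, 0.0595 with at least 4 of the 6 pericyte genes and 0.0573 with haemoglobin, Ttr and lymphocyte cells removed. In pericytes it was higher in Lrg1-/- than in WT mice after sham surgery (1595 and 2199 CPM in the 2 libraries of the fit against 533, 560 and 553 CPM, log2 fold change 1.79, SE 0.20, adjusted p = 0.000269), and after MCAO/R it was at 356 and 392 CPM against 664 and 498 CPM (-0.64, SE 0.23, adjusted p = 0.108). Groups of 3 libraries or fewer were not tested for a library far from the others.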

How the results depend on the processing

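The number of genes called depended on the processing in every comparison. For MCAO/R against sham surgery in WT pericytes, 234 genes became 29 with a Bonferroni adjustment, 655 with no filter on low counts, 54 when no smooth muscle or endothelial gene was allowed, 358 in a fit of these groups alone, 363 and 400 with at least 4 and 5 of the 6 pericyte genes and 390 with haemoglobin, Ttr, lymphocyte and myeloid cells removed. For the genotypes after MCAO/R, 830 became 39 with Bonferroni, 1406 with no filter, 118 without any smooth muscle or endothelial gene, 288 in a fit of these groups alone, 524 with haemoglobin, Ttr and lymphocyte cells removed and 49 with myeloid cells removed as well, which left 1 library in the MCAO/R + Lrg1-/- group. For the genotypes after sham surgery, 702 became 61 with Bonferroni, 1215 with no filter, 383 with at least 4 pericyte genes, 443 with cells thinned to 1000 UMIs and 47 with haemoglobin, Ttr and lymphocyte cells removed. For MCAO/R against sham surgery in Lrg1-/- pericytes, 45 became 8 with Bonferroni, 162 with DESeq2, 455 with no filter, 26 with at least 4 pericyte genes and 3 with those cells removed. The 1 interaction call became 2 with doublets removed and with library totals, 22 with DESeq2, 5 with thinned cells, 111 with no filter and 0 with at least 10 cells per library, at least 4 pericyte genes or those cells removed. The cause of these shifts was not tested.

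With each library left out in turn, the counts ranged from 60 to 276, 260 to 1061, 142 to 746, 11 to 89 and 0 to 12 in the same order, with the lowest without sham + WT replicate 2, MCAO/R + WT replicate 2 and, for the third and the fourth, sham + Lrg1-/- replicate 1, and for the interaction without MCAO/R + Lrg1-/- replicate 5 and each sham + WT replicate. The difference in pericyte share ranged from 0.663 to 2.15 percentage points for MCAO/R in WT mice, from -3.69 to -2.20 and from -1.57 to -1.47 for the genotypes after MCAO/R and sham surgery, and from -0.130 to 0.0682 for MCAO/R in Lrg1-/- mice. The last also turned its sign with at least 2 of the 6 pericyte genes, at 0.0805, among vascular cells, at 0.712 and, with thinned cells, 1.33, and at 0.00620, 0.0331 and 0.0348 without sham + Lrg1-/- replicate 1, sham + Lrg1-/- replicate 2 and MCAO/R + Lrg1-/- replicate 1. Among single genes, Prkch and Ccl5 turned their sign for MCAO/R in Lrg1-/- pericytes with at least 4 pericyte genes (6.90 and 1.78) and with haemoglobin, Ttr and lymphocyte cells removed (6.77 and 0.34). Of 4330 values of single genes under these settings, 3495 were classed as the same, 784 as weaker, 47 as stronger and the 4 just given as reversed. A value classed as the same may still have changed its sign where the gene was not called.

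Library totals without TMM turned the calls for MCAO/R in Lrg1-/- pericytes to 15 higher and 23 lower, against 23 and 22.

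Deviations of same-numbered libraries from their group means correlated at -0.16 to 0.08. In a group with 2 libraries in the fit these deviations mirror each other. The correlations therefore cannot decide whether the replicate numbers pair the libraries. With the replicate number as a block the counts were 95, 263, 394, 22 and 0 in the order above.

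With haemoglobin, Ttr and lymphocyte cells removed, 1 sham + Lrg1-/- library stayed in the fit, and with myeloid cells removed as well, 1 MCAO/R + Lrg1-/- library. Each lone library was assumed to vary like the other groups. The comparisons with the sham + Lrg1-/- group could not be fitted without any smooth muscle or endothelial gene, with at least 5 pericyte genes or with myeloid cells removed. The settings with at least 2 and 5 pericyte genes and with cells removed for haemoglobin, Ttr, lymphocyte or myeloid transcripts, and thinned vascular cells, were chosen after seeing the data. Depth limits the Lrg1-/- groups most, with 362814 pericyte UMIs after sham surgery against 2726451 in WT.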
